A study of Homo sapiens with 4 samples.

Results

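The insulin-like growth factor (IGF) axis was examined in T24 cells with and without overexpression of CBX7, through 10 genes of the 60623 in the deposited table: the ligand IGF2, its imprinted neighbour H19, the receptors IGF1R, IGF2R and INSR, and the binding proteins IGFBP2, IGFBP3, IGFBP4, IGFBP6 and IGFBP7. These 10 genes were chosen by values measured in the same contrast, because IGF2 was already known to be higher with CBX7, so their differences between the groups are given as a description. How many of them passed the tests over all genes is printed for completeness, and nothing is read from it. A filter on low counts kept 14862 genes, among them 9 of the 10 and all but IGFBP2.

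T24 is a human bladder cancer cell line. RNA sequencing covered 2 control libraries and 2 libraries of T24 cells overexpressing CBX7, all grown in RPMI medium with 10% FCS. Full-length CBX7 was cloned into a pCDH vector with a FLAG tag, and what the control cells carried, whether lines were clones, and whether the libraries of a group came from separate cultures are not given in the sources used here. A spread between libraries, and a p-value based on it, may therefore be technical only.

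The libraries held 20800910 to 25135488 summed counts. CBX7 itself stood at 10.9 and 9.67 CPM (counts scaled by library size, here with TMM factors) in the control libraries and at 1774 and 1595 CPM in the CBX7 libraries, so the labels held in every library. Epithelial keratins were abundant, with a summed level of 3151 to 3730 TPM (a level scaled for transcript length and depth) for 6 epithelial markers, although CDH1 had at most 2 counts in any library. Of 7 urothelial markers, 5 (the uroplakins UPK1A, UPK1B, UPK2 and UPK3A, and KRT20) had 3 counts or fewer in every library. The 3 liver markers summed to 0 to 0.46 TPM, and the endothelial and haematopoietic sums did not exceed 1.64 TPM. The 7 fibroblast markers summed to 2.51 and 2.31 TPM in the controls and to 2.44 and 6.57 TPM with CBX7. In CPM, all 3 fibroblast markers that were tested (COL1A1, COL3A1 and PDGFRB) were higher in both CBX7 libraries than in both controls, as were 15.4% of all genes tested, but in TPM COL1A1 and COL3A1 overlapped. Of the 4 that were not tested, LUM, at 3 to 8 counts, was higher in the same way, and DCN, COL1A2 and PDGFRA overlapped in CPM. Of the epithelial markers tested, 2 of 5 (KRT18 and KRT19, at log2 fold changes of 0.30 and 1.35) were higher in both CBX7 libraries, and KRT7, KRT8 and EPCAM overlapped. Of the urothelial markers tested, 1 of 2 (GATA3, at 2.28) was higher in CPM, and PPARG overlapped. GATA3 had 3 and 4 counts in the controls and 14 and 22 with CBX7, and it overlapped in TPM. The endothelial CDH5 was lower in both CBX7 libraries, with 13 and 12 counts in the controls against 3 and 7. Whether any of these cell type transcripts has a part in the IGF2 values was not tested.

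IGF2 is a secreted growth factor of fetal and tumour growth. It signals through the tyrosine kinases IGF1R and INSR, whereas IGF2R carries it to lysosomes for breakdown, and IGF binding proteins hold it in the extracellular space. IGF2 and the non-coding RNA H19 lie side by side on chromosome 11 and are imprinted in opposite ways, IGF2 being read from the paternal and H19 from the maternal allele, under an imprinting control region bound by CTCF and with shared enhancers. CBX7 is a chromodomain subunit of Polycomb repressive complex 1, which binds methylated histone H3 tails and is known above all for silencing genes, often at CpG-rich promoters.

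Because Polycomb targets are often CpG-rich, the start regions of 3 of the 10 genes are shown: H19, which was higher together with IGF2, IGFBP4, which was also higher in both CBX7 libraries, and IGF1R, which had the most CpG dinucleotides of the set. Each window runs from 250 bases before to 50 bases after the RefSeq start on GRCh38.p14, 5′ to 3′ on the strand of the gene, with CpG dinucleotides in capitals. H19 lies at chr11:2001217-2001516 on the minus strand, IGFBP4 at chr17:40443200-40443499 on the plus strand and IGF1R at chr15:98648289-98648588 on the plus strand.
H19: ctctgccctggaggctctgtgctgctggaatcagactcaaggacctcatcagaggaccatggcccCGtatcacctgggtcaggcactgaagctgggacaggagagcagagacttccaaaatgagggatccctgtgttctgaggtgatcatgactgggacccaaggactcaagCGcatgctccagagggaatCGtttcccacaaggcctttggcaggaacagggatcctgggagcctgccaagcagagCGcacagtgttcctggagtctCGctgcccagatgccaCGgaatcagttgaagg
IGFBP4: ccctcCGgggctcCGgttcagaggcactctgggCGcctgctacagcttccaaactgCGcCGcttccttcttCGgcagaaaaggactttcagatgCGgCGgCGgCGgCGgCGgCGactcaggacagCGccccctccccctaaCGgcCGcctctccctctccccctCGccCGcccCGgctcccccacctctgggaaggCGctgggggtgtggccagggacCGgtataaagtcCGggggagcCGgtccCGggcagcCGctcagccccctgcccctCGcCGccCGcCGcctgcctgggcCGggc
IGF1R: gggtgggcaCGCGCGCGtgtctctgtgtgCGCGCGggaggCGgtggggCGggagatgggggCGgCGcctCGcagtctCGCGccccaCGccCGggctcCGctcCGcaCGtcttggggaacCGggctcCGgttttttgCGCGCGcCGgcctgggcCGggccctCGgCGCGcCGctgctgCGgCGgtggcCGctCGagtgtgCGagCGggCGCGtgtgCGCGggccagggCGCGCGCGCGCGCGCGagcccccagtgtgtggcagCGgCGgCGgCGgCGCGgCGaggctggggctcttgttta

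The H19 window had 6 CpG dinucleotides, 0.242 of the number its base composition would give, at 57.7% GC. The IGFBP4 window had 30 (ratio 0.746), and the IGF1R window 55 (ratio 1.19, 79.7% GC). Over 35116 promoter windows of the same length, the median was 14 CpG dinucleotides, and 33.7% of windows had fewer than H19. With at least 50% GC and a ratio of at least 0.6 taken as island-like, IGF1R, IGF2R, INSR, IGFBP3, IGFBP4 and the middle one of 3 IGFBP2 windows passed, as did 46.9% of all windows, whereas H19 and IGFBP6 did not. The motif TATAAA, searched on both strands, was found in the IGFBP4 window and in none of the other 9 windows of the set, against 11.5% of all windows. GGGCGG, searched on both strands, was absent from the H19 window and from the last IGFBP2 window, and present in the other 8, against 45.0% of all windows. IGF2 and IGFBP7 had no entry in the promoter table.

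IGF2 (chr11:2129112-2149603, minus strand, GENCODE 29 on GRCh38) was barely detected in control cells and several-fold higher in both CBX7 libraries. It had 20 and 9.01 estimated counts in the controls and 103.84 and 106.71 with CBX7. Scaled for depth, the level was 0.838 and 0.429 CPM in the controls and 4.31 and 4.79 CPM with CBX7. Both CBX7 libraries thus lay above both controls, by more than the difference between libraries of a group. The means were 0.633 ± 0.290 and 4.55 ± 0.341 CPM (SD, 2 libraries each). The log2 fold change of the edgeR fit was 2.82 ± 0.36 (SE), which is 7.04-fold. In RNA from a bulk culture, more RNA per cell and more cells that express the gene cannot be told apart.

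These few reads carry a wide counting error. In CPM without TMM scaling, the exact binomial 95% interval was 0.517 to 1.31 in control replicate 1 and 0.198 to 0.821 in control replicate 2. With CBX7 the intervals were 3.38 to 5.01 and 3.99 to 5.89. The intervals cover counting error only, since PCR copies are not independent molecules, and they lend no support to a difference for which the gene was selected. Over all genes, libraries of a group differed by more than counting error, with a chi-square per degree of freedom of 6.49 between the controls and 59.7 between the CBX7 libraries. IGF2 ranked high by its difference and low by its level. Only 11 of the 14862 genes tested (0.0740%) had a larger log2 fold change. In TPM, IGF2 stood at 0.25 and 0.12 in the controls and at 1.05 and 1.88 with CBX7. Its mean control TPM exceeded that of 1.03% of the genes tested, and its mean with CBX7 that of 16.9%.

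Reads of genes that overlap IGF2 can be split or shared in counting, and strand use in counting is not given in the sources used here. The read-through gene INS-IGF2 was listed at 0 counts in all 4 libraries. A non-coding gene within the last part of IGF2, AC132217.1, had 0 and 0.99 counts in the controls and 6.16 and 0.29 with CBX7. Added to those of IGF2, these gave whole numbers of 20, 10, 110 and 107 counts, so the fractional parts of the counts of both genes made up whole reads in the 3 libraries that had them. The antisense gene IGF2-AS had 2 counts in CBX7 replicate 2 and 0 in the others. INS had 3 counts in CBX7 replicate 1 and 0 elsewhere. MIR483, within an IGF2 intron, and MIR675, within H19, were at 0 throughout in these libraries. How many IGF2 reads belong to each transcript was not analysed here.

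**Figure D1:**
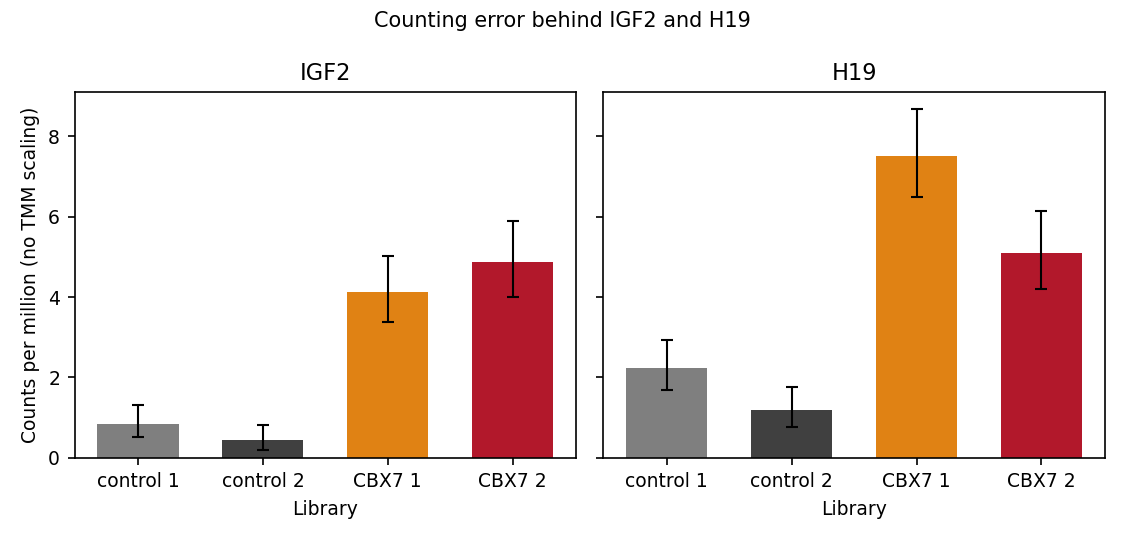
CPM, without TMM scaling, of IGF2 (left) and H19 (right) in each library, with exact binomial 95% intervals as bars. IGF2 was at 0.847 and 0.433 CPM in the control libraries and at 4.14 and 4.87 CPM in the CBX7 libraries, and the bars cover counting error only, not the spread between libraries.

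H19 (chr11:1995176-2001470, minus strand) is a long non-coding RNA that is abundant in the embryo and host to MIR675. It too was higher in both CBX7 libraries. It had 53 and 25 counts in the controls and 189 and 112 with CBX7, or 2.22 and 1.19 CPM against 7.83 and 5.01 CPM. The groups did not overlap, although in CPM the CBX7 libraries differed from each other more than they did for IGF2. In TPM, where H19 was at 1.65 and 0.88 against 4.69 and 3.62, it was IGF2 whose CBX7 libraries lay further apart in proportion. The means were 1.71 ± 0.729 and 6.42 ± 1.99 CPM (SD, 2 libraries each), and the log2 fold change was 1.90 ± 0.38 (SE), or 3.73-fold. A larger log2 fold change was found for 47 of the genes tested (0.316%).

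The level of IGF2 relative to H19 also differed. In TPM, H19 was the more abundant of the pair in every library. IGF2 was at 0.152 and 0.136 of the H19 level in the controls (TPM ratio) and at 0.224 and 0.519 with CBX7. The CBX7 libraries lay above the controls but apart from each other. The ratios of counts were 0.377 and 0.360 in the controls and 0.549 and 0.953 with CBX7. In control replicate 1 a TPM stood for 80.0 counts of IGF2 and 32.1 of H19, although the deposited lengths were 1583 and 2348 bases. The order per length thus rests on the lengths assumed, above all in CBX7 replicate 2, where counts were nearly equal (106.71 and 112). On log2 TPM the ratio was higher by 1.25 with CBX7, from a mean of -2.80 ± 0.107 to -1.55 ± 0.858 (SD, 2 libraries each). With 2 libraries in each group, an exact two-sided permutation test cannot give a p below 0.333, so none of these ratios can pass it. With a pseudocount of 1 TPM the difference was -0.16, the reverse direction, since IGF2 levels in the controls lie far below 1 TPM.

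**Figure D2:**
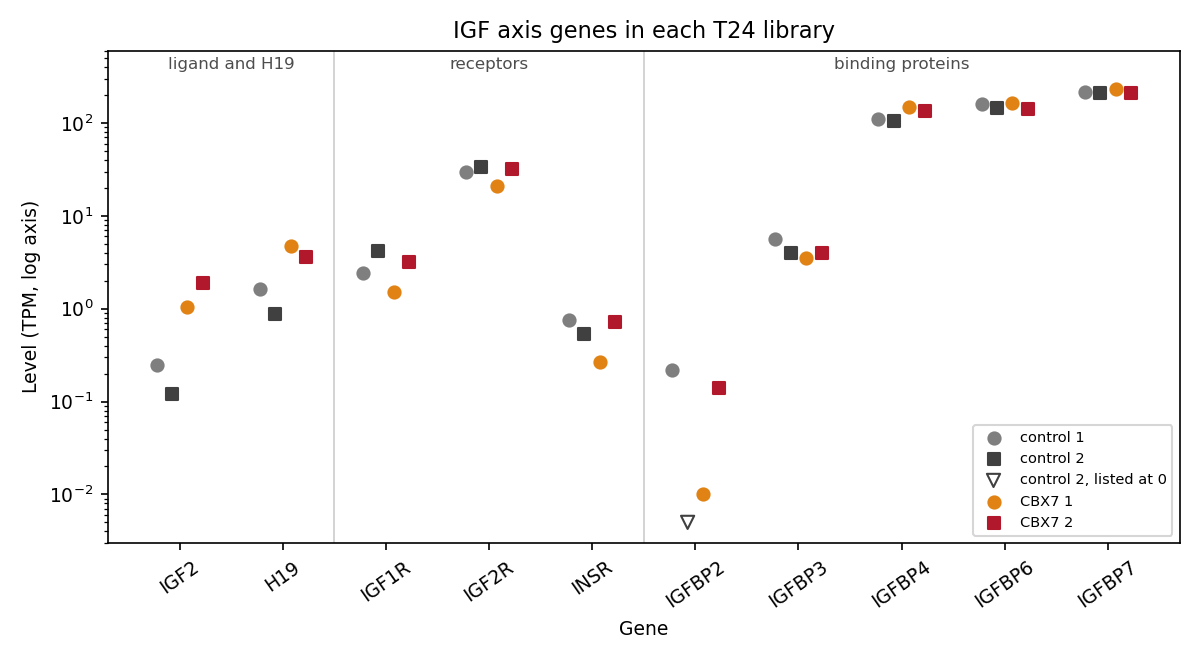
Level in TPM (log axis) of the 10 genes in each library, with control libraries in greys and CBX7 libraries in orange and red, and the value of 0 for IGFBP2 in control replicate 2 drawn as an open triangle at the bottom. IGF2 and H19 are higher in both CBX7 libraries, whereas the receptors overlap between the groups and IGFBP6 and IGFBP7 stay between 143 and 232 TPM.

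Without a correction for gene length, the receptors overlapped between the groups, in CPM and in TPM. IGF1R, the kinase that carries most IGF signalling, was at 14.3 and 20.1 CPM in the controls and at 17.0 and 26.9 CPM with CBX7. The log2 fold change from counts was 0.36 ± 0.28 (SE). In TPM the same gene was at 2.45 and 4.18 in the controls and at 1.52 and 3.22 with CBX7, and the log2 ratio of the means was -0.48, so the direction depends on the scale. One TPM stood for 139 and 101 counts of IGF1R in the controls and for 270 and 187 counts with CBX7. For IGF2 the number was 80.0 and 75.1 counts per TPM in the controls and 98.9 and 56.8 with CBX7, on either side of the control range. The transcripts assumed in each library were not analysed here.

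IGF2R, the scavenger of IGF2, was the most abundant receptor, at 30.0 and 33.3 TPM in the controls and at 20.7 and 31.7 TPM with CBX7. CBX7 replicate 1 was the low library, and replicate 2 lay within the control range. The log2 fold change from counts was -0.28 ± 0.29 (SE). Relative to the ligand, IGF2R went from 120 and 278 times the IGF2 level in the controls to 19.8 and 16.9 times with CBX7 (TPM ratios). The IGF2R to IGF1R ratio again depended on the scale. On log2 TPM it was higher with CBX7 by 0.23, less than its SD among controls of 0.437. In CPM it was 13.2 and 11.1 in the controls and 7.16 and 8.10 with CBX7, a log2 difference of -0.67 without overlap.

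INSR, the insulin receptor, one splice form of which also binds IGF2, was low at 0.75 and 0.53 TPM in the controls and 0.27 and 0.72 TPM with CBX7. Again CBX7 replicate 1 was the low library. Its log2 fold change was -0.36 ± 0.37 (SE). Without CBX7 replicate 1 the log2 fold changes of IGF2R and INSR were 0.09 and 0.06, and without CBX7 replicate 2 they were -0.76 and -0.95, so for both receptors 1 library decided the direction.

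The receptors were also the longest of the 10 genes, at 9463 to 14044 bases in the deposited table. Across the transcriptome, the share of counts from long genes differed between libraries, and most for CBX7 replicate 1. Across the 11077 genes averaging 100 counts or more, which share library and depth, Spearman's correlation between gene length and the log2 ratio was -0.622 when CBX7 replicate 1 was set against control replicate 1, and 0.0424 for the replicates numbered 2. The controls were separated too, at -0.488 for control replicate 1 against control replicate 2, and the CBX7 libraries at -0.703. At the lengths of the receptors this trend amounted to -0.39 to -0.52 on the log2 scale in CBX7 replicate 1, to 0.19 to 0.26 in replicate 2 of either group, and to about 0 (-0.0086 to -0.0008) in control replicate 1. With each library corrected for its own trend, the log2 fold change was 0.56 ± 0.12 (SE) for IGF1R, -0.08 ± 0.07 for IGF2R and -0.23 ± 0.24 for INSR. On that corrected scale IGF1R no longer overlapped, at 14.3 and 17.1 CPM in the controls and 23.6 and 22.8 CPM with CBX7. IGF2R did not overlap either and was lower by a small amount, at 189 and 187 CPM against 174 and 182 CPM, and INSR still overlapped. The overlap of IGF1R and IGF2R thus depended on the length correction. The same correction left IGF2 at 2.73 and H19 at 1.84.

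**Figure D3:**
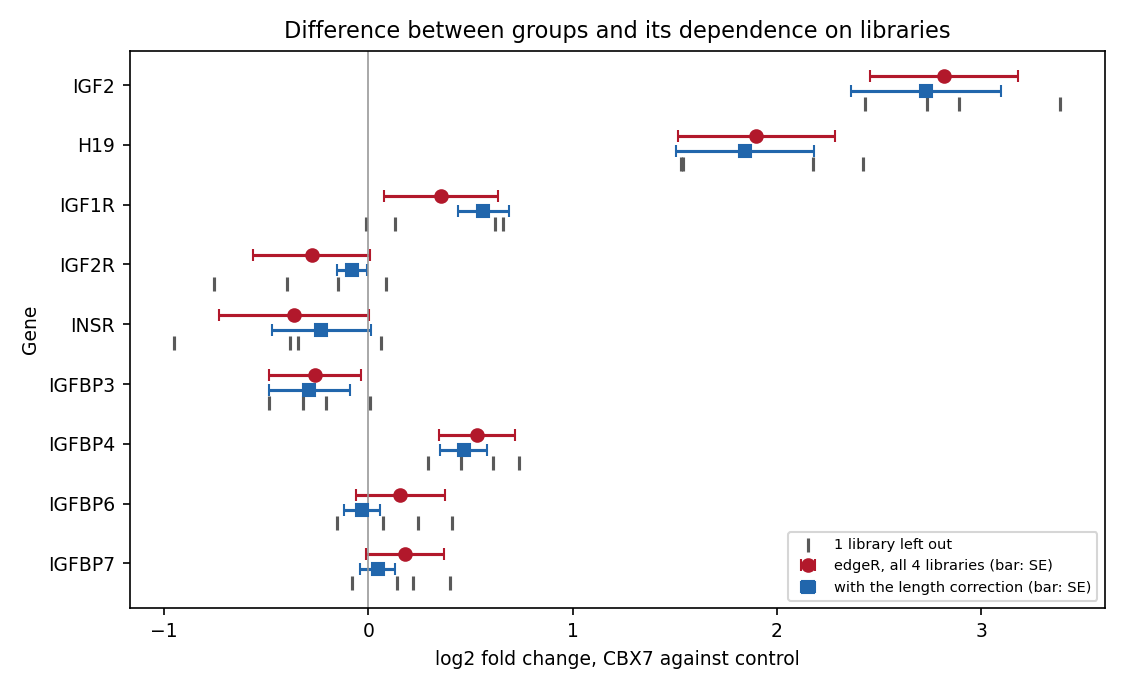
Log2 fold change, CBX7 against control, of the 9 genes tested, from the edgeR fit (red circles) and with the length correction (blue squares), with SE bars, and with 1 library left out in turn (grey ticks). IGF2 stays between 2.43 and 3.39 and H19 between 1.53 and 2.42 with any library left out, whereas for the receptors and for IGFBP3, IGFBP6 and IGFBP7 the ticks fall on both sides of 0.

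Among binding proteins, IGFBP4 was higher with CBX7, while the other abundant ones differed by less than the spread between libraries. IGFBP4, which mainly holds IGF away from its receptors until it is cleaved, was at 172 and 154 CPM in the controls and at 272 and 199 CPM with CBX7. The groups did not overlap. The means were 162.6 ± 12.6 and 235 ± 51.6 CPM (SD, 2 libraries each), and the log2 fold change was 0.53 ± 0.19 (SE), or 1.45-fold. It fell to 0.29 without CBX7 replicate 1 and was 0.47 with the length correction. In TPM, IGFBP4 was at 111 and 104 in the controls and at 149 and 136 with CBX7.

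IGFBP6, which prefers IGF2 over IGF1, was at 158 and 147 TPM in the controls and at 164 and 143 TPM with CBX7. IGFBP7, which binds IGFs weakly, was at 215 and 212 TPM against 232 and 209 TPM. For both genes the CBX7 libraries lay on either side of the control range. Their log2 fold changes of 0.16 ± 0.22 and 0.18 ± 0.19 (SE) turned to -0.15 and -0.08 without CBX7 replicate 1, and that of IGFBP6, the shortest of the 10 genes at 947 bases, to -0.03 with the length correction.

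IGFBP3, the main carrier of IGFs in serum, was far lower, at 5.57 and 4.02 TPM in the controls and at 3.55 and 3.96 TPM with CBX7. In TPM both CBX7 libraries lay just below both controls, but in CPM the groups overlapped, with 9.09 and 6.43 against 6.75 and 6.22. The log2 fold change was -0.26 ± 0.22 (SE), and 0.01 without control replicate 1. IGFBP2 had 2, 0, 1 and 2 counts in control replicates 1 and 2 and CBX7 replicates 1 and 2. None exceeded 3 counts, which is as many as a library with a count of 0 could still hide, so at this depth no difference could be detected.

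The summed level of these binding proteins was 490 and 466 TPM in the controls and 548 and 492 TPM with CBX7, a difference of 0.12 on log2 TPM (SD 0.0509 and 0.111). The size of this difference depended on the scale, at 0.29 in log2 CPM and 0.0056 with length-corrected TPM. Within that sum the IGFBP4 share was 22.7% and 22.3% in the controls and 27.1% and 27.7% with CBX7. The IGFBP6 share was 32.3% and 31.5% against 30.0% and 29.1%, and that of IGFBP7 43.8% and 45.4% against 42.3% and 42.4%. The shares of IGFBP4 were thus higher in both CBX7 libraries, and since the shares add up to the whole, those of IGFBP6 and IGFBP7 were lower although their mean TPM was not. Binding protein transcripts outnumbered those of IGF2 by 1959 and 3884 to 1 in the controls and by 522 and 262 to 1 with CBX7.

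By mean TPM, the order in control cells was IGFBP7, IGFBP6, IGFBP4, IGF2R, IGFBP3, IGF1R, H19, INSR, IGF2 and IGFBP2. Neighbours in that order had separate ranges except IGFBP3 with IGF1R and IGF2 with IGFBP2. With CBX7 the first 4 kept their places, and H19 came next, followed by IGFBP3, IGF1R, IGF2, INSR and IGFBP2. There the ranges overlapped between IGFBP6 and IGFBP4, between H19 and IGFBP3 and between IGF1R and IGF2.

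Of the 9 genes tested, 3 (IGF2, H19 and IGFBP4) were higher in both CBX7 libraries than in both controls in CPM, as were 15.4% of all genes tested, and 0 were lower in both, as were 14.8% of all. At an adjusted p under 0.05, edgeR called 0 of the 9 (0.0202% of all genes, 3 in number). At an unadjusted p under 0.05 it called the same 3 genes as higher (3.42% of all) and 0 as lower (1.32% of all). DESeq2 called H19 and IGF2 (0.451% of all). The genes were selected on this contrast, so these counts support no statement about them. The median log2 fold change of the 9 was 0.18, or 0.05 with the length correction, and that of all genes tested 0.0017.

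The genes whose profile over the 4 libraries was nearest to that of IGF2 were found among 12180 genes averaging 50 counts or more, by the Euclidean distance between log2 CPM values (prior count 2) relative to the control mean of each gene. The nearest 4 were CYGB, a globin (distance 0.700), MFAP2, a protein of elastic microfibrils (0.804), the Notch ligand JAG2 (0.943) and the translation elongation factor EEF1A2 (0.978). MFAP2 stood at 1.34 and 1.48 CPM in the controls and at 10.4 and 7.97 CPM with CBX7. EEF1A2 was at 46.4 and 39.2 CPM against 491 and 352 CPM. H19 took rank 10 (1.33), IGFBP4 rank 325 and IGF1R rank 1103, whereas IGF2R and INSR, at ranks 11501 and 11827, were among the least like IGF2. These distances were taken without the length correction. With it, the log2 fold changes of IGF2R and INSR went from -0.28 and -0.36 to -0.08 and -0.23. How the ranks would change with it was not tested.

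The genes around IGF2 were examined next, to place IGF2 and H19, whose starts lie 148.1 kb apart, in their chromosomal setting. Within 1000 kb of the IGF2 start there were 86 other genes, of which 19 were tested. Of these, 7 were higher in both CBX7 libraries in CPM (15.4% of all genes tested were) and 0 were lower in both (14.8% of all). The median log2 fold change was 0.21 (range -0.23 to 1.10). In TPM, CARS, CDKN1C, DUSP8 and TOLLIP of the 7 overlapped between the groups, whereas PHLDA2, SLC22A18 and BRSK2 did not. Outside the 7, TSSC4 was higher and NAP1L4 lower without overlap in TPM only. In log2 fold change, all 19 lay below H19 and IGF2. At the adjusted threshold 0 were called by edgeR (0.0202% of all genes tested) and 0 by DESeq2 (0.451% of all). In edgeR 3 had an unadjusted p under 0.05, all higher with CBX7 (3.42% of all were higher and 1.32% lower). Because the region was picked around IGF2, these counts describe it and are no test of it.

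On the far side of IGF2 from H19 lies the imprinted KCNQ1 domain. There, PHLDA2, a growth-restraining placental protein, was at 56.6 and 52.2 CPM in the controls and at 101 and 66.2 CPM with CBX7. Its log2 fold change was 0.62 ± 0.23 (SE; edgeR unadjusted p = 0.0355, adjusted p = 0.951), and 0.43 with the length correction. The transporter gene SLC22A18 was at 9.64 and 7.95 CPM against 13.7 and 13.4 CPM (0.62 ± 0.17; edgeR unadjusted p = 0.0114, adjusted p = 0.713). CDKN1C, an inhibitor of cyclin-dependent kinases, differed by 0.21 ± 0.22, and CARS, a tRNA synthetase gene, by 0.14 ± 0.14. Their groups did not overlap in CPM but did in TPM, and their differences were about as large as their SE. The non-coding RNA KCNQ1OT1 was at 5.87 and 8.34 CPM against 4.10 and 8.10 CPM, with overlapping groups.

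On the H19 side, BRSK2, a kinase, was at 1.80 and 3.10 CPM in the controls and at 5.47 and 4.97 CPM with CBX7 (1.10 ± 0.31 (SE) on the log2 scale; edgeR unadjusted p = 0.0131, adjusted p = 0.745). DUSP8, a phosphatase, was at 1.55 and 1.43 CPM against 3.89 and 1.92 CPM, so the CBX7 libraries differed widely. TOLLIP, a regulator of Toll-like receptor signalling, differed by 0.09 ± 0.13. Of the genes tested, the nearest to the pair were TH on the far side and MRPL23 beyond H19, which overlapped between the groups, at log2 fold changes of 0.57 ± 0.38 and -0.18 ± 0.37 (SE).

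**Figure D4:**
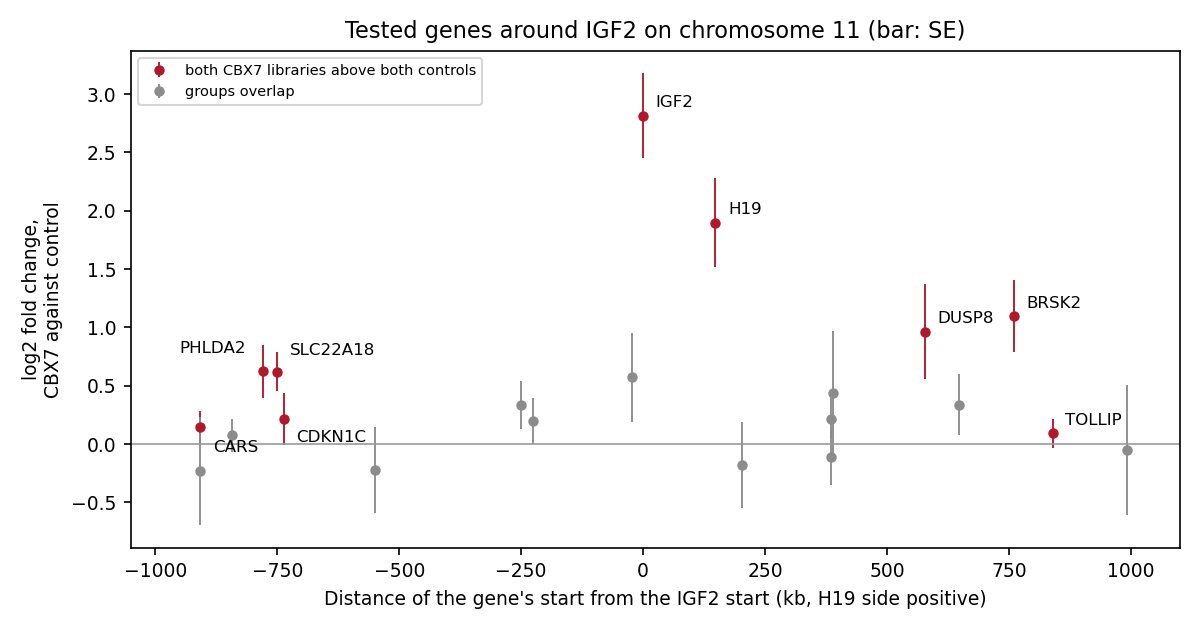
Log2 fold change with SE bars of the tested genes within 1000 kb of the IGF2 start, against the distance of their own start (kb, H19 side positive), with genes higher in both CBX7 libraries in CPM in red. IGF2 at 2.82 and H19 at 1.90 stand above the 19 other genes, which reach at most 1.10.

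The rest of the pathway was followed through 7 lists with 158 genes outside the set, of which 105 were tested. In edgeR 0 of the 105 passed an adjusted p of 0.05, as did 0.0202% of all genes tested. At an unadjusted p under 0.05, 3 were higher (CCN2, PHLDA2 and SLC22A18), as were 3.42% of all, and 1 was lower (STC1), as were 1.32% of all. DESeq2 called 0 (0.451% of all). In CPM, 15 were higher and 22 lower in both CBX7 libraries, and the median log2 fold change was -0.04. These counts without overlap, and those in the lists below, stand beside 15.4% (higher) and 14.8% (lower) of all genes tested. Counts at an unadjusted p under 0.05 in the lists below stand beside 3.42% (higher) and 1.32% (lower).

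Of the genes for ligands and their processing, 5 of 9 were tested, and 1, M6PR, a mannose-6-phosphate receptor, lay lower without overlap (-0.07 ± 0.12 on the log2 scale). IGF1 was at 0 counts in every library, so IGF2 was the IGF ligand that was detected. FURIN, a proprotein convertase, differed by 0.02 ± 0.13.

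Of the other binding proteins, 6 of 12 were tested, with 3 higher and 1 lower (HTRA1) without overlap. CCN2, a matrix protein of the CCN family, was at 79.9 and 73.6 CPM in the controls and at 114 and 101 CPM with CBX7 (0.49 ± 0.14; edgeR unadjusted p = 0.0152, adjusted p = 0.776). KAZALD1 and ESM1 were the other 2 that were higher, by 0.28 ± 0.22 and 0.24 ± 0.13. CCN1, the most abundant of the list, overlapped between the groups. IGFBP5 was not tested, with 4 and 3 counts in the controls and 9 and 8 with CBX7, which was higher without overlap. CCN3, also not tested, had 16 and 4 counts in the controls and 4 and 1 with CBX7, lower without overlap in CPM. IGFBP1, with 15 to 33 counts, overlapped.

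Of the binding protein proteases and their inhibitors, 7 of 14 were tested, with 2 higher and 3 lower without overlap. STC1, a stanniocalcin that blocks pappalysin proteases, was the lowest, at 12.8 and 11.9 CPM in the controls and at 5.84 and 7.74 CPM with CBX7. Its log2 fold change was -0.86 ± 0.20 (SE; edgeR unadjusted p = 0.0053, adjusted p = 0.525). PAPPA, the pappalysin that cleaves IGFBP4, had at most 3.78 counts. ADAM12, another protease of binding proteins, differed by -0.45 ± 0.24, the plasminogen activator PLAU by 0.21 ± 0.13, and STC2 and PRSS23, which also did not overlap, by -0.17 ± 0.12 and 0.13 ± 0.13.

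Of the adaptors and the PI3K-AKT pathway downstream of the receptors, 37 of 39 were tested, with 2 higher (GRB2 and DDR1) and 10 lower without overlap, and 0 called by edgeR at an unadjusted p under 0.05 in either direction. The lower ones with the largest differences were PIK3R2, a regulatory subunit of PI3K (-0.42 ± 0.21), the transcription factor FOXO4 (-0.37 ± 0.20) and the adaptor IRS2 (-0.33 ± 0.16). The median of -0.14 became -0.03 with the length correction. RACK1, the most abundant of the list, overlapped between the groups.

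Of the imprinted genes of 11p15.5, 12 of 25 in the table were tested, with 5 higher and 0 lower without overlap, and the median log2 fold change was 0.21, or 0.14 with the length correction. The 5 were PHLDA2, SLC22A18, CDKN1C and CARS, described above, and OSBPL5 (0.06 ± 0.13). Of these, CDKN1C, CARS and OSBPL5 overlapped in TPM. CD81, the most abundant of the list, overlapped between the groups. Of 36 other imprinted genes, 18 were tested, with 2 higher and 3 lower without overlap and a median of -0.04. NAP1L5 (0.65 ± 0.29) and BLCAP (0.31 ± 0.14) were the higher ones, SGCE (-0.18 ± 0.15), COPG2 (-0.14 ± 0.13) and CPA4 (-0.11 ± 0.13) the lower ones, and GNAS overlapped.

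Of the regulators of IGF2 transcription, imprint and RNA, 21 of 24 were tested, with 1 higher and 4 lower without overlap and a median of -0.06. RING1, a subunit of Polycomb repressive complex 1, was the higher one (0.29 ± 0.18). CTCF, the insulator protein of the imprinting control region, was at 82.1 and 84.4 CPM in the controls and at 75.7 and 80.4 CPM with CBX7, and the DNA methyltransferase DNMT1 differed by -0.18 ± 0.14. EZH2, which methylates histone H3 for Polycomb, and RNF2, another subunit of complex 1, were the other lower ones, at -0.07 ± 0.13 and -0.09 ± 0.13. In TPM, CTCF, DNMT1 and EZH2 overlapped, whereas RING1 and RNF2 did not, and DNMT1 differed by -0.08 with the length correction. HMGA1 was the most abundant of the list and overlapped between the groups in CPM, but in TPM it was lower in both CBX7 libraries. The IGF2 mRNA binding proteins IGF2BP1, IGF2BP2 and IGF2BP3 overlapped as well, at log2 fold changes of 0.07, -0.01 and 0.08 with SE of 0.20, 0.13 and 0.23.

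**Figure D5:**
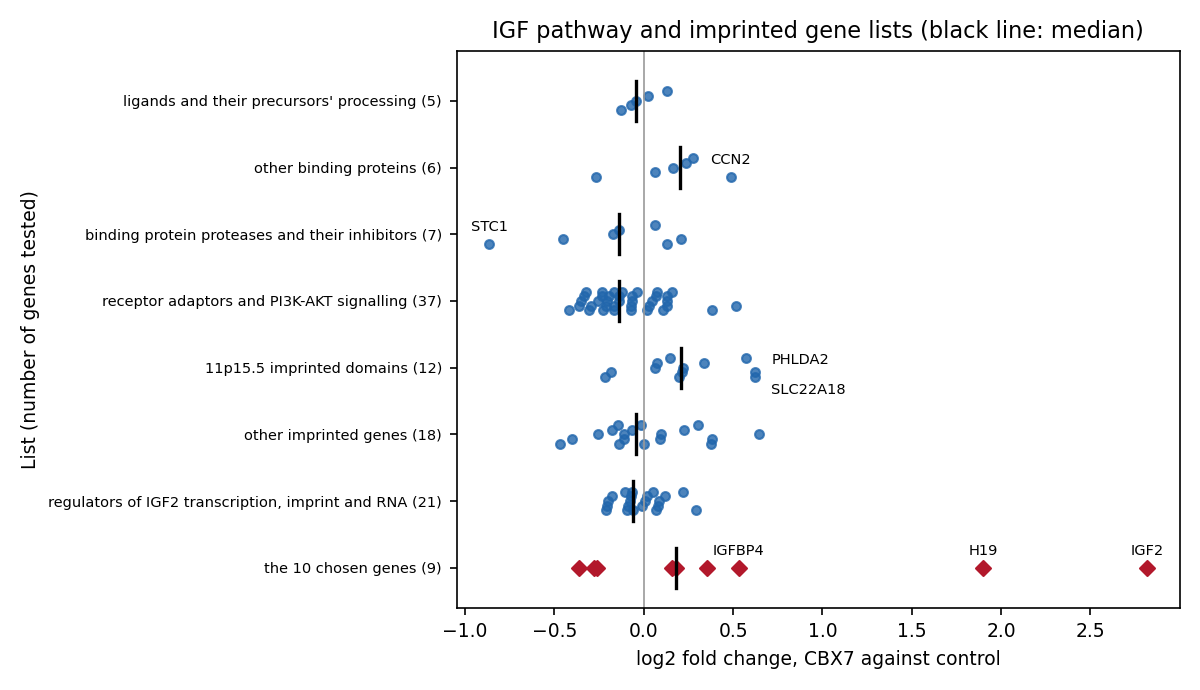
Log2 fold change, CBX7 against control, of the tested genes in 7 lists of the IGF pathway and of imprinted genes (blue points) and of the chosen genes (red diamonds), with the median of each list as a black line. The medians of the 7 lists lie between -0.14 and 0.21, and IGF2 at 2.82 and H19 at 1.90 lie outside the range of every list.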

How the data were processed

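RNA of 2 control and 2 CBX7 libraries was measured. Per library, the authors deposited estimated counts of reads for each gene, not normalized, and TPM values, which they had scaled for transcript length and depth, beside the gene length. Over all genes, zeros included, 88.2% to 88.9% of counts were exactly whole, and 66.9% to 68.6% of those above 0. The submitters' processing notes name cutadapt 1.9.1, HISAT2 2.0.1, HTSeq 0.6.1, DESeq2 and hg19. The tool behind the TPM values and fractional counts, and the annotation, are not given in the sources used here. The authors' own comparison columns (fold, log2 fold, p-value, adjusted p-value, significance and direction) were not used. Of 60623 genes, 96.5% matched GENCODE 29 on GRCh38 by identifier, which gave coordinates and gene types. Promoter windows came from RefSeq (GRCh38.p14), with 8 of 10 genes matched.

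Counts were rounded, filtered with filterByExpr, scaled by TMM and tested with edgeR 4.0.16 (R 4.3.3; quasi-likelihood, condition as the only term, Benjamini-Hochberg adjustment over 14862 genes). SE is the log2 fold change over the square root of F. Alternatives were DESeq2 1.42.0, other scalings and filters, a replicate block, a correction for each library's loess trend with gene length (span 0.5), and leaving out each library. The code was tested on simulated data. "Without overlap" means that both CBX7 libraries lay on 1 side of both controls in TMM-scaled CPM.

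The 10 genes and the 7 lists were chosen with earlier results of these data known. Beside the 10 genes, the text names those of each list with the largest differences (up to 3, mean of at least 50 counts, no overlap), the most abundant of each, the 5 profiles nearest to IGF2 (the last of which is not reported here) and the tested, non-overlapping genes within 1000 kb of it, with a mean of at least 50 counts. KCNQ1OT1, TH, MRPL23, FURIN, IGF1, IGFBP1, IGFBP5, PAPPA, the IGF2 mRNA binding proteins and the transcripts overlapping IGF2 and H19 were added for their roles or position after values were seen. So were genes named to complete a statement on overlap (HTRA1, CCN3, STC2, PRSS23, GRB2, DDR1, OSBPL5, COPG2, CPA4, EZH2, RNF2, TSSC4 and NAP1L4).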

Additional observations from a re-analysis of the deposited data

How the results depend on the processing

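Depth limits IGF2 in control cells to 9.01 and 20 counts, so its fold change rests on few reads, and a filter of at least 10 counts in every library removed it, leaving no value there. In the 8 other alternatives its log2 fold change stayed between 2.71 and 2.83, and between 2.43 and 3.39 with 1 library left out, the highest without control replicate 1. With 2 libraries per group edgeR estimated the spread with a prior of 3.61 degrees of freedom. In the fits without a filter, with the replicate block and with a library left out this prior was infinite, and a lone library was assumed to vary like the other group. The cause of the changes in the counts of calls below was not tested.

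At an adjusted p under 0.05, the calls over all genes, the 10 chosen genes and the listed genes were 3, 0 and 0. They were 265, 2 and 1 without a filter, 67, 2 and 0 with DESeq2, 361, 2 and 4 with the replicate block, and 310, 4 and 3 with the replicate block and the length correction. The length correction alone called 2 genes. With 1 library left out they ranged from 45 to 5491, 1 to 7 and 0 to 50, with the highest numbers without CBX7 replicate 2 and the lowest over all genes without control replicate 2. Same-numbered libraries deviated together (correlation 0.305 over all genes tested, 0.613 over those averaging 100 counts or more), but with 2 pairs and labels that name no shared culture or day they share only a number. The 4 listed genes called under the block were PHLDA2 and SLC22A18 (higher) and STC1 and ZDBF2 (lower). Of the chosen genes, the block called IGF2 and H19, and with the length correction IGF1R and IGFBP4 as well.

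The IGF2 to H19 ratio differed by 1.25 on log2 TPM, by 0.98 in CPM, by 1.19 with length-corrected TPM, by -0.16 with a pseudocount of 1 TPM, and by 0.64 to 1.85 with 1 library left out. The summed binding protein level differed by 0.12 on log2 TPM, by 0.29 in CPM, by 0.0056 with length-corrected TPM, and by 0.04 to 0.20 with 1 library left out.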
